A study of Schizosaccharomyces pombe with 4 samples.

Results

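The transcriptome of an ifh1 knockout of the fission yeast Schizosaccharomyces pombe was compared with that of wild type. The question was which genes differ in level when ifh1, also named crf1, is missing. For each gene the difference of log2(FPKM + 1), ifh1 knockout minus wild type, was taken, where FPKM is the number of sequenced fragments per kilobase of gene, scaled to the size of the library. Genes were kept if the mean of the 4 deposited FPKM columns was at least 10 and the coding length was at least 300 bases, and ifh1 itself was left out. This kept 4284 of the 5129 genes of the table. Of the others, 651 lay under the expression minimum and 193 passed it but were shorter. At the edges, the TFIID gene taf51 (mean 9.98 FPKM) was just out, SPCPB16A4.06c (mean 10.1 FPKM) just in, the urm1 gene (294 bases) just out and rpl3601 (300 bases) just in.

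The series held 4 samples, 1 each of the ifh1, sfp1 and fhl1 knockouts and of wild type. All 4 were cultures in exponential phase with no treatment, and total RNA was sequenced from directional libraries. The labels give no further genotype, no mating type and no number of clones. The name of the deposited table mentions 2 replicates, but the sources used here do not say how they were combined, and each genotype had 1 value per gene. No test, p-value or error of a ratio could be had, every number below describes these 4 columns, and "higher" and "lower" say only how the 2 values of a gene stood. Since the samples were bulk cultures, a change in the mix of cells and a change in RNA per cell cannot be told apart.

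In the budding yeast Saccharomyces cerevisiae, Ifh1 is a coactivator that binds the forkhead protein Fhl1 at the promoters of ribosomal protein genes, and its presence there depends on nutrient signals passed on by TORC1, the growth-controlling kinase complex. Sfp1 is a zinc finger factor of the same system, best known there for driving ribosomal protein and ribosome biogenesis genes. In fission yeast, most ribosomal protein promoters carry a short element called the HomolD box, which takes the place of a TATA box, often with a second element called HomolE.

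The targeted gene was checked first. The ifh1 gene (SPAC22H10.11c, chromosome I 2392370 to 2394259, minus strand) was listed at 0.556 FPKM in the ifh1 knockout, 105 in the sfp1 knockout, 118 in the fhl1 knockout and 128 in wild type. The fhl1 gene stood at 45.1 FPKM in the ifh1 knockout and 53.8 in wild type, and sfp1 at 270 and 261 FPKM. The sfp1 and fhl1 genes were at 0.0818 and 0.0509 FPKM in their own knockouts. The ifh1 label was thus met by the ifh1 gene, and the genes of the other two regulators were within 1.5-fold of wild type. Of the 10 members nearest to ifh1 on chromosome I, 9 were above 0, with a median log2 ratio of 0.31 in the ifh1 knockout and 0.10 in each of the sfp1 and fhl1 knockouts. The highest of the 10 was cbp8, which lies 2697 bases from the ifh1 coding region, at 63.0 FPKM in the ifh1 knockout, 61.0 in the sfp1 knockout, 48.9 in the fhl1 knockout and 35.8 in wild type.

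Most genes differed little. The log2 ratio over all 4284 members had a median of −0.02 and quartiles of −0.24 and 0.19, and 89.1% of members lay within 1.5-fold either way. At least 2-fold lower in the ifh1 knockout were 108 members, or 2.52%, and at least 2-fold higher were 31, or 0.724%. The deposited lower and upper bounds of the 2 genotypes did not overlap for 59 of the lower members (1.38% of all members) and 11 of the higher (0.257%). Members at the limit differed in level between the directions: the wild-type median was 2923 FPKM for the 108 lower genes and 14.1 FPKM for the 31 higher genes. Of the 108 lower genes, 58 (53.7%) encoded ribosomal proteins, 50 did not, and 27 were in none of the 35 gene lists used here. Of the 31 higher genes, 0 encoded ribosomal proteins and 23 were in no list. Ribosomal protein genes were 123 of all 4284 members, so 0 among 31 says little. Most of the 4284 members were in no list too. Higher genes made up 22.3% of the 139 at the limit, 67.7% when both columns were scaled by their FPKM total without ribosomal protein genes (non-RP scaling below), and 42.9% with quantile normalization. A gene low in wild type could pass the expression minimum through the knockouts alone.

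**Figure D1:**
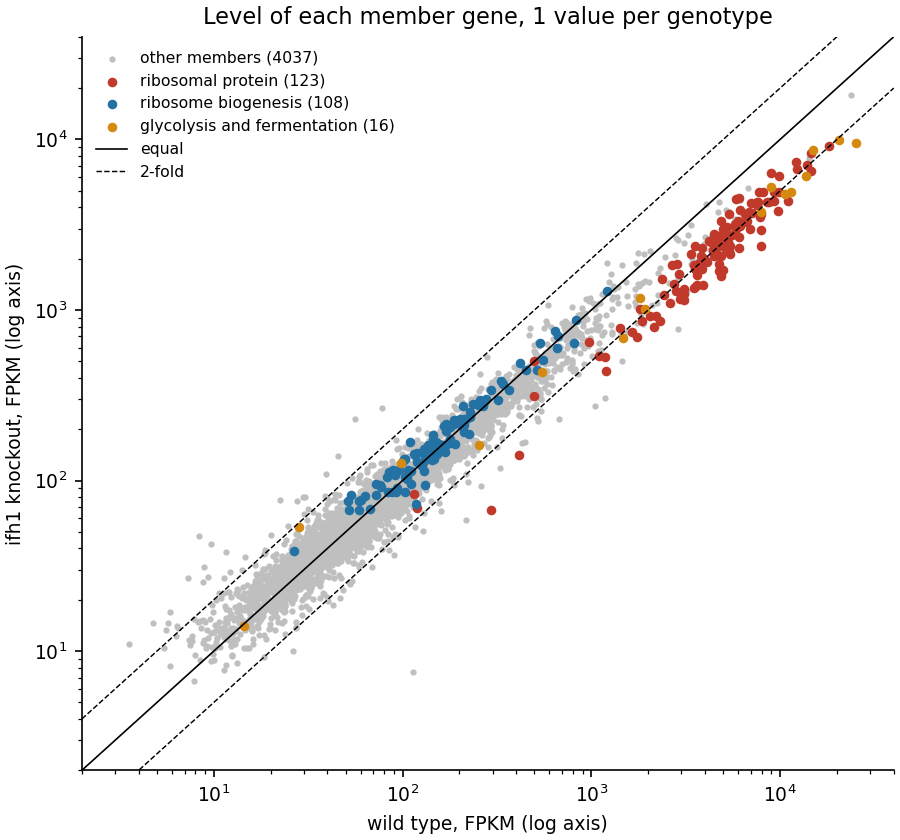
Level of each of the 4284 member genes in the ifh1 knockout (vertical) and in wild type (horizontal), in FPKM on log axes, 1 point per gene, with lines for equal level and for a 2-fold difference. Ribosomal protein genes lie near the lower 2-fold line at the top of the range, glycolysis genes of high level lie beside them, and ribosome biogenesis genes lie along the line of equal level.

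Ribosomal protein genes, which encode the structural proteins of the cytosolic ribosome, were lower in the ifh1 knockout. Of the 123 that passed the filters (of 142 named), 122 were below 0, against 53% of all members, and 58 were at least 2-fold lower, 33 of them with bounds apart. Their median log2 ratio was −0.99 in the ifh1 knockout, beside −0.62 in the sfp1 knockout, with −0.61 in the fhl1 knockout, each against the same wild-type column. At the 2-fold lower limit were 3 of them in the sfp1 knockout, where 2.12% of all members were, and 10 in the fhl1 knockout, where 0.56% were. The 75 large-subunit genes had a median of −0.99 with 32 at the limit, and the 48 small-subunit genes a median of −1.02 with 26 at the limit. Together they held 31.2% of the summed FPKM of the members in the ifh1 knockout, 35.3% in the sfp1 knockout, 35.8% in the fhl1 knockout and 41.9% in wild type. The sum itself was 1044140 FPKM in the ifh1 knockout, 1166680 in the sfp1 knockout, 1211250 in the fhl1 knockout and 1527260 in wild type. A share thus depends both on its genes and on this sum. With quantile normalization, which gives all 4 columns 1 shared distribution, the median was −0.21 and 96 of 123 were below 0. With non-RP scaling the median of all members became 0.26 and the ribosomal protein median −0.71. This scaling moves all ratios by nearly the same amount. The difference of the 2 medians, −0.97 with and without it, was therefore near fixed in advance.

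The lowest ratios among them were those of rpl1603, rps1402, rpl2401, rpl3002 and rps2601. The rpl2401 gene, for large-subunit protein eL24, stood at 1593 FPKM in the ifh1 knockout, 2689 in the sfp1 knockout, 2152 in the fhl1 knockout and 4847 in wild type (log2 ratio of the ifh1 knockout −1.60). The rps2601 gene, for small-subunit protein eS26, stood at 1713, 3180, 2200 and 4999.8 FPKM in the ifh1, sfp1 and fhl1 knockouts and wild type (−1.54). The rps1701 gene, for eS17, stood at 1404 FPKM in the ifh1 knockout, 2309 in the sfp1 knockout, 2090.4 in the fhl1 knockout and 3925 in wild type (−1.48). In these 3 genes the ifh1 knockout held the lowest and wild type the highest of the 4 values, and the bounds of the ifh1 knockout and wild type lay apart. The deposited FPKM of ribosomal protein genes stood above the midpoint of its own bounds, by a median factor of 1.79 in the ifh1 knockout and 1.87 in wild type, against 1.04 and 1.05 for other members. It lay above its own upper bound for 89 of the 123 in the ifh1 knockout and 93 in wild type, and for 556 and 605 of the 4161 other members, so "bounds apart" compares the bounds alone and not intervals around the printed values. Taken from those midpoints, the ribosomal protein median was −0.91.

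**Figure D2:**
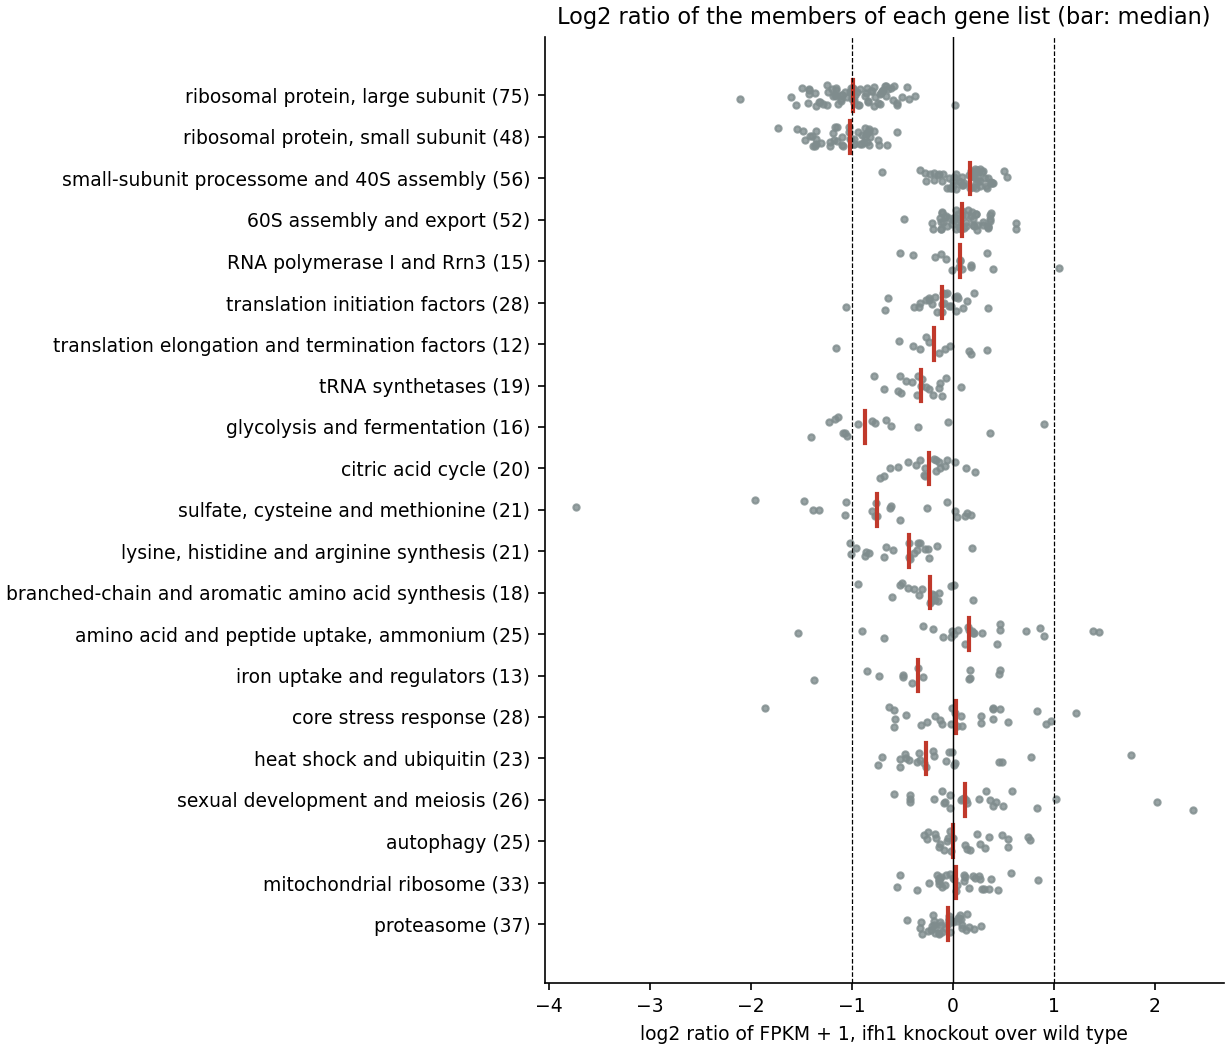
Log2 ratio of FPKM + 1, ifh1 knockout over wild type, for the members of 21 gene lists, with the number measured in brackets, 1 point per gene and a bar at the median. Dashed lines mark 2-fold. The ribosomal protein lists stand near −1 and glycolysis and sulfur genes near −0.8, while the biogenesis lists stand a little above 0.

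Level went with the ratio outside ribosomal protein genes too. Among the other 4161 members the median log2 ratio was 0.14 at a mean of 10 to 30 FPKM, 0.03 at 30 to 100, −0.06 at 100 to 300, −0.19 at 300 to 1000, −0.38 at 1000 to 3000 and −0.76 at 3000 and above. Ribosomal protein genes stood lower than other members of the same level: −1.10 for 40 genes against −0.38 for 66 at 1000 to 3000 FPKM, and −0.98 for 73 against −0.76 for 28 at 3000 and above. The differences between these medians were −0.72 and −0.22, and −0.57 and −0.20 with quantile normalization. The other members at 1000 FPKM and above included 11 glycolysis genes, with a median of −1.07, and 42 genes in no list, with a median of −0.40. The 10 ribosomal protein genes with a mean under 1000 FPKM had a median of −0.90. The part of level in the ribosomal protein result and in the lists below was not tested.

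**Figure D3:**
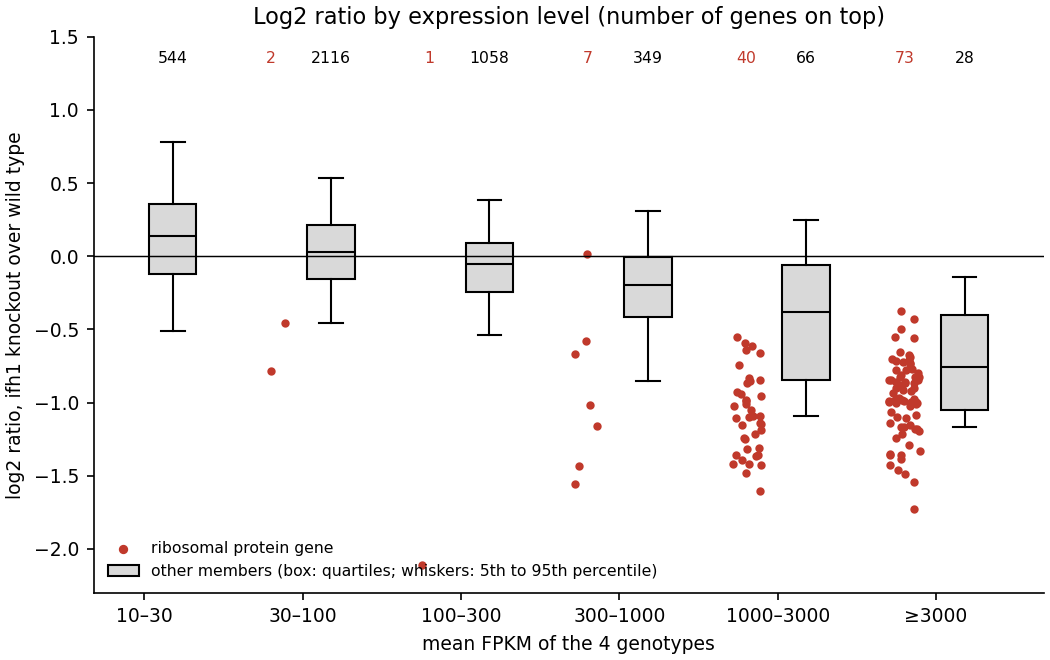
Log2 ratio, ifh1 knockout over wild type, by the mean FPKM of the 4 genotypes. Red points are single ribosomal protein genes, and grey boxes show the quartiles, the median and the 5th to 95th percentile of the other members. The boxes move down with level, to a median of −0.76 at 3000 FPKM and above, and the medians of the red points there and in the bin before it are −0.98 and −1.10.

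Fission yeast has more than one gene copy for many ribosomal proteins, and the copies could be set side by side. The 123 genes made 66 families, of which all 66 were below 0 when the FPKM of their copies were summed, with a median of −1.0 and 33 at least 2-fold lower. In 50 of the 51 families with several measured copies every copy was below 0, and the copies of a family differed by a median of 0.28. Reads shared between near-identical copies could move values from 1 copy to another, and the sources used here do not say how such reads were counted. In 2 families the copies differed by 1 or more.

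The first of these was the family of uL1, a protein of the large subunit. Copy rpl101 stood at 2206 FPKM in the ifh1 knockout, 3402 in the sfp1 knockout, 3301 in the fhl1 knockout and 5391 in wild type (−1.29). Copy rpl102 stood at 504 FPKM in the ifh1 knockout, 454 in the sfp1 knockout, 397 in the fhl1 knockout and 497 in wild type (0.02), the only ribosomal protein member above 0. The coding sequences of these copies were 79.7% identical. The second was the family of uS11, a protein of the small-subunit platform. Copy rps1402 stood at 2382 FPKM in the ifh1 knockout, 4400 in the sfp1 knockout, 4413 in the fhl1 knockout and 7895 in wild type (−1.73). Copy rps1401 stood at 1835, 1455, 1498 and 2686 FPKM in the ifh1, sfp1 and fhl1 knockouts and wild type (−0.55, and 0.19 with quantile normalization). These copies were 93.6% identical, so their split is the less certain. For rps1401 the ifh1 knockout was the highest of the 3 knockouts, and for rps1402 it was the lowest.

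Next came the families of eL30, eL27 and uL13. The minor copy rpl3002 stood at 140 FPKM in the ifh1 knockout, 403 in the sfp1 knockout, 249 in the fhl1 knockout and 415 in wild type (−1.56). The major copy rpl3001 stood at 7379, 7812, 9472 and 12071 FPKM in the ifh1, sfp1 and fhl1 knockouts and wild type (−0.71, and 0.11 with quantile normalization). Copy rpl2701 was at −1.43 and rpl2702 at −0.61 (0.16 with quantile normalization). The 3 copies for uL13 included rpl1603, the lowest of all ribosomal protein genes by ratio, which stood at 67.3 FPKM in the ifh1 knockout, 197 in the sfp1 knockout, 72.6 in the fhl1 knockout and 293 in wild type (−2.11). Its value was low in the ifh1 and fhl1 knockouts alike. Copies rpl1601 and rpl1602 were at −1.36 and −1.49.

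**Figure D4:**
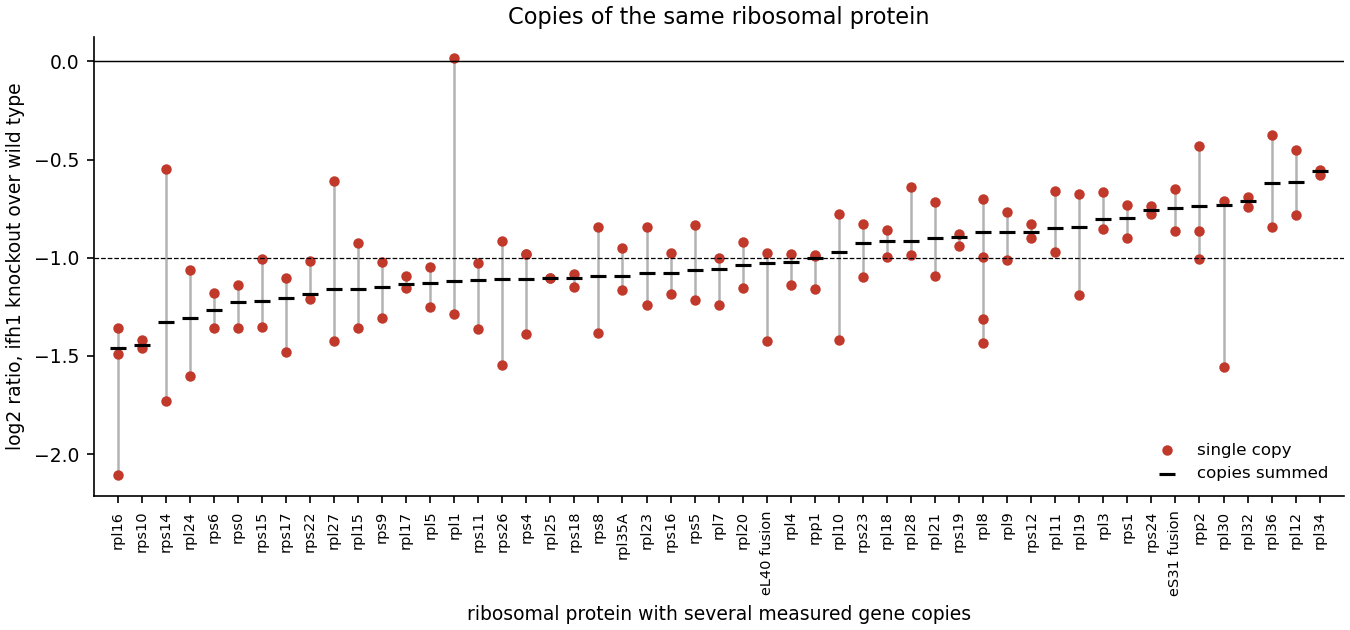
Log2 ratio, ifh1 knockout over wild type, of each measured gene copy (points) and of the summed copies (black bars). Shown are the 51 ribosomal protein families, grouped by symbol, with several measured genes, ordered by the summed ratio. The rpl8 group joins genes annotated for eL8 and for uL2. The copies of rpl1 and rps14 lie furthest apart, and rpl102 alone lies above 0.

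Promoters of these copies were read from the RefSeq assembly ASM294v3, in which 4949 of 5111 matched genes had the coding boundaries of the deposited table. The window was the 300 bases upstream of the annotated transcript start, and motifs were searched on both strands. HomolD was searched as CAGTCACA and CAGTCACG, HomolE as a pair of ACCCT in direct repeat, and the shared core CAGTCAC, which overlaps HomolD by construction, was added after the first search was seen. The windows below show the copies that differed most. Capitals mark the core (GTGACTG where it lies on the other strand) and HomolE. Each runs 5′ to 3′ toward the gene, 100 bases to the transcript start where no other transcript reaches in, and otherwise only the 30 bases 70 to 41 upstream.
rpl101 (chrIII:612580-612679, minus strand, log2 ratio −1.29): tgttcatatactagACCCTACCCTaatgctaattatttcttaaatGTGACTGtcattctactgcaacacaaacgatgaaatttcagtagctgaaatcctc
rpl102 (chrII:3060449-3060548, plus strand, 0.02): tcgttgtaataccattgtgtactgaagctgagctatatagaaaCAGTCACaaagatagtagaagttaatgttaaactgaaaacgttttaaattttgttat
rps1402 (chrII:1792293-1792322, plus strand, −1.73): cgacacaaatttGTGACTGttcctttagtt
rps1401 (chrI:3436174-3436203, plus strand, −0.55): aaACCCTACCCTaaattgactgctttttta
rpl1603 (chrII:3443184-3443213, plus strand, −2.11): aaacgtcagaaaaaCAGTCACgtttgataa
rpl1602 (chrI:4097226-4097325, plus strand, −1.49): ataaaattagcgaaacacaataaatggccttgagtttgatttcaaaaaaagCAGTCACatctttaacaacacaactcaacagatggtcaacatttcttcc
rpl1601 (chrII:624056-624155, minus strand, −1.36): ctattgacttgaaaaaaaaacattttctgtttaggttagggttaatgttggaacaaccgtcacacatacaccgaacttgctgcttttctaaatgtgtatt

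The core was in the window of 111 of the 123 ribosomal protein members (90.2%), with its base farthest from the gene a median of 51 bases upstream, against 98 of 4160 other members (2.36%) and 4.74% of all windows. HomolD in full was in 81.3% of ribosomal protein members, 1.66% of other members and 3.80% of all windows, and HomolE in 30.9%, 0.481% and 1.25%. Only exact matches were counted, so a window without the core may still hold a near match to it. Within ribosomal protein genes the exact core did not sort the ratios: the median was −0.99 for the 111 with it and −1.03 for the 12 without it. The windows printed above, of copies picked because they differ, went both ways. Copy rpl102 held the core at 0.02, and rpl1601 held no exact core at −1.36. Against that, rps1402 held the core at −1.73 and rps1401 held no exact core at −0.55. The rpl1601 window holds ccgtcac and the rps1401 window ttgactg, each a single letter off the core. These pairs thus do not compare presence with absence of the element. Copies rpl1603 and rpl1602, with the core at −2.11 and −1.49, also stood lower than rpl1601. The 7 letters say nothing of whether a factor binds there.

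Among the 98 other members with the core, 82 were below 0, 9 were at least 2-fold lower and 0 were at least 2-fold higher, against 2.52% and 0.724% of all members. Those shares include ribosomal protein genes. Of the 4161 members outside them, 2148 were below 0, 50 were at least 2-fold lower and 31 at least 2-fold higher. The median of other members was −0.35 with the core and −0.01 without it, and −0.38 for the 69 with HomolD in full. Those with the core were also of higher level, with a median of 225 FPKM in wild type. At 1000 FPKM and above the medians were −0.78 for 20 genes with the core and −0.41 for 74 without, and under 1000 FPKM they were −0.24 for 78 with and −0.00 for 3988 without. For 17 the window was shared with that of a ribosomal protein gene. The other 81 had a median of −0.35, with 66 below 0 and 7 at least 2-fold lower. The 9 among all 98 were oga1, sam1, trz2, btf3, met26, sce3, byr3, his1 and lys9, named because they met the 2-fold limit. Of these, trz2 and his1 shared the window with a ribosomal protein gene, so the core there may belong to either gene. The next windows show 3 of them with roles in translation or sulfur metabolism, marked as above.
oga1 (chrII:4283829-4283928, plus strand, −1.88): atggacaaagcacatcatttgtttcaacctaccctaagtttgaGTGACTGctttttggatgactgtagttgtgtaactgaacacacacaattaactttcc
sam1 (chrII:4163859-4163958, minus strand, −1.32): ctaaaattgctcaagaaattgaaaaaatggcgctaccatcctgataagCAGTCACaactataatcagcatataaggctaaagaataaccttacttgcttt
byr3 (chrI:2248564-2248663, minus strand, −1.05): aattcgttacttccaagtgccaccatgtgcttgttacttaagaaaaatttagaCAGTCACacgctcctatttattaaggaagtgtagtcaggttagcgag

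The oga1 gene, whose product is annotated as Stm1, a protein that in budding yeast binds idle ribosomes, stood at 779 FPKM in the ifh1 knockout, 2466 in the sfp1 knockout, 1445 in the fhl1 knockout and 2879 in wild type. The ifh1 knockout was the lowest, and the sfp1 knockout was within 1.5-fold of wild type. The byr3 gene, for a zinc finger activator of translation, stood at 745 FPKM in the ifh1 knockout, 622 in the sfp1 knockout, 776 in the fhl1 knockout and 1540 in wild type, so that all 3 knockouts were low. The partner genes btf3 and egd2, for the beta and alpha subunits of the nascent polypeptide-associated complex, which binds new proteins as they leave the ribosome, were at −1.10 and −0.90, and both carried the core.

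Genes for making ribosomes, as opposed to those for the ribosome's own proteins, were not lower. The 108 measured genes of the biogenesis lists had a median log2 ratio of 0.12, with 78 above 0 (against 47% of all members) and 0 at the 2-fold limit in either direction. The median was −0.58 in the sfp1 knockout, with −0.11 in the fhl1 knockout. The 56 genes of the small-subunit processome and 40S assembly, which cut and fold the small-subunit RNA, had a median of 0.17, and the 52 of 60S assembly and export a median of 0.09. The 56 include dim1 (−0.23), which is annotated as a subunit of the U4/U6 x U5 tri-snRNP complex and not as an assembly factor. The share of the 108 genes in the summed FPKM was 2.23% in the ifh1 knockout, 1.17% in the sfp1 knockout, 1.65% in the fhl1 knockout and 1.44% in wild type. The sum was 1044140 FPKM in the ifh1 knockout and 1527260 in wild type, so this share could rise with little rise in level. The median was above 0 under every alternative tried, at most 0.41 with non-RP scaling, where the median of all members was 0.26. The difference from all members, 0.14 without this scaling and 0.15 with it, is one that the scaling can hardly change.

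The rrp8 gene, for a methyltransferase of ribosomal RNA, stood at 82.5 FPKM in the ifh1 knockout, 43.0 in the sfp1 knockout, 66.2 in the fhl1 knockout and 53.1 in wild type (0.63). The rrp36 gene, for a factor of early processing, stood at 75.5, 40.9, 59.95 and 51.6 FPKM in the ifh1, sfp1 and fhl1 knockouts and wild type (0.54). The ifh1 knockout was thus the highest and the sfp1 knockout the lowest of the 4 for both genes. The ltv1 gene, for a 40S assembly factor, went furthest the other way, at 72.4 FPKM in the ifh1 knockout, 72.3 in the sfp1 knockout, 71.3 in the fhl1 knockout and 118 in wild type (−0.70). It was near the same level in all 3 knockouts and was among the genes with the core in the window, its farthest base 52 bases upstream.

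Genes for RNA polymerase I, which transcribes the large ribosomal RNAs, and for its initiation and upstream activation factors stood with the biogenesis genes. These 15 measured genes had a median of 0.07 in the ifh1 knockout, −0.66 in the sfp1 knockout, with −0.11 in the fhl1 knockout. The largest subunit of the polymerase, nuc1, was at 0.07. The rpa43 gene, for the subunit that in budding yeast contacts the initiation factor Rrn3, stood at 64.0 FPKM in the ifh1 knockout, 32.1 in the sfp1 knockout, 47.9 in the fhl1 knockout and 30.2 in wild type (1.06), with overlapping bounds. The rpa12 gene was at −0.52.

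Translation factors had medians nearer to 0 than ribosomal proteins. The 28 initiation factor genes had a median of −0.10 and the 12 elongation and termination factor genes a median of −0.19, and these turned to 0.058 and 0.21 with quantile normalization and to 0.18 and 0.10 with non-RP scaling. In each list 1 gene was at least 2-fold lower (2.52% of all members), which for the 28 initiation factors is near that share. The sce3 gene, for an initiation factor, stood at 699 FPKM in the ifh1 knockout, 846 in the sfp1 knockout, 821 in the fhl1 knockout and 1452 in wild type (−1.05). The tif512 gene, for eIF5A, which helps the ribosome through difficult peptide bonds, stood at 3595, 4323, 4906 and 8030 FPKM in the ifh1, sfp1 and fhl1 knockouts and wild type (−1.16). Bounds overlapped for both. Going the other way were tif11, for eIF1A, at 0.35 and tef103, a gene for elongation factor 1 alpha, at 0.34. The 19 tRNA synthetase genes, whose enzymes load tRNAs with amino acids, had a median of −0.31. Of these, 18 were below 0 (53% of all members) and 0 at the limit, and lrs1, for the leucine enzyme, was lowest at −0.77. Their median was −0.10 with quantile normalization (13 below 0) and −0.027 with non-RP scaling (11 below 0).

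Glycolysis and fermentation genes, which turn glucose into ethanol, were also among the lower genes. Of 16 measured, 14 were below 0 (53% of all members) and 7 were at least 2-fold lower (2.52% of all members), with a median of −0.86 in the ifh1 knockout and −0.50 in each of the sfp1 and fhl1 knockouts. The 7 were tdh1, eno101, gpm1, pyk1, pgi1, pgk1 and fba1, which cover most steps between glucose 6-phosphate and pyruvate. Bounds lay apart for tdh1 only, the gene for glyceraldehyde 3-phosphate dehydrogenase, at 9514 FPKM in the ifh1 knockout, 16948 in the sfp1 knockout, 13342 in the fhl1 knockout and 25191 in wild type (−1.40). The gpm1 gene, for phosphoglycerate mutase, stood at 6123, 9374, 8541 and 13735 FPKM in the ifh1, sfp1 and fhl1 knockouts and wild type (−1.17). In both genes the ifh1 knockout was lowest.

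Level moved with this group as well. The 11 glycolysis genes of at least 1000 FPKM had a median of −1.07, and the 5 under it a median of −0.043, among them the minor pyruvate decarboxylase gene pdc201 at 53.6 FPKM in the ifh1 knockout, 69.5 in the sfp1 knockout, 46.4 in the fhl1 knockout and 28.2 in wild type (0.90). In comparison, the 42 members of at least 1000 FPKM in no list had a median of −0.40. With quantile normalization the glycolysis median was −0.20. Among those 42, chosen for naming after their values were seen, the pentose phosphate genes tkt1, gnd1 and tal1 were at −0.94, −0.85 and −0.85, and act1, for actin, was at −0.41. The 20 genes of the citric acid cycle had a median of −0.23 (0.053 with non-RP scaling), with lat1 and mdh1 lowest at −0.72 and −0.68 and mae2, the malic enzyme gene, at 0.22. Among the hexose transporters, ght5, for the high-affinity glucose carrier, stood at 98.3 FPKM in the ifh1 knockout, 199 in the sfp1 knockout, 292 in the fhl1 knockout and 223 in wild type (−1.17), with bounds apart. The ifh1 knockout alone was low for ght5, whereas ght2 was at 0.50 and fbp1, the gluconeogenic phosphatase gene, at 0.54.

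Sulfur amino acid genes had a median log2 ratio of −0.75, beside −0.50 in the sfp1 knockout, with −0.46 in the fhl1 knockout. Of 21 measured, 16 were below 0 (53% of all members) and 7 at least 2-fold lower (2.52% of all members), 5 of them with bounds apart (1.38% of all members). The median was −0.52 with quantile normalization (15 below 0) and −0.47 with non-RP scaling (14 below 0). The list's wild-type median was 329 FPKM, under that of ribosomal protein genes, 4847 FPKM. The lowest ratio of all 4284 members was that of SPBPB10D8.01, annotated as a cysteine transporter (chromosome II 81295 to 82953), at 7.57 FPKM in the ifh1 knockout, 37.8 in the sfp1 knockout, 25.1 in the fhl1 knockout and 113 in wild type (−3.74). The bounds were 4.15 and 10.9 FPKM in the ifh1 knockout and 75.3 and 144 FPKM in wild type. The met17 gene, for homocysteine synthase, which fixes sulfide into an amino acid, stood at 303 FPKM in the ifh1 knockout, 632 in the sfp1 knockout, 431 in the fhl1 knockout and 1184 in wild type (−1.96). For both genes all 3 knockouts were under wild type and the ifh1 knockout was lowest.

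The members ran along the pathway. For uptake and activation of sulfate, the transporter gene sul1 was at −0.80, the sulfate adenylyltransferase gene sua1 at −1.05 and met14, the adenylyl-sulfate kinase gene, at −0.52. For reduction, met10 and sir1, for the subunits of sulfite reductase, were at −0.76 and −0.75, met1, which makes the sirohaem that sulfite reductase needs, was at −1.47, and met16 was at −0.05. For the carbon skeleton, a pair of genes differed: cys2, annotated as a homoserine acetyltransferase gene, stood at 169 FPKM in the ifh1 knockout, 177 in the sfp1 knockout, 213 in the fhl1 knockout and 443 in wild type (−1.38), while met6, with the same annotated activity, stood at 296 FPKM in the ifh1 knockout, 206 in the sfp1 knockout, 293 in the fhl1 knockout and 273 in wild type (0.12). For methionine and its use, met26, the methionine synthase gene, was at −1.07 and sam1, the S-adenosylmethionine synthetase gene, stood at 1288 FPKM in the ifh1 knockout, 1467 in the sfp1 knockout, 1897 in the fhl1 knockout and 3218 in wild type (−1.32). The 5 members above 0 were met3, for cystathionine gamma-synthase, at 0.19, gcs1 and gcs2, for glutathione synthesis, at 0.14 and 0.02, met6 at 0.12, and met11, for a methylenetetrahydrofolate reductase, at 0.04.

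Genes for making other amino acids were lower by less. For lysine, histidine and arginine, 20 of 21 were below 0, with a median of −0.43 in the ifh1 knockout, −0.01 in the sfp1 knockout, with −0.29 in the fhl1 knockout, and 2 were at least 2-fold lower (2.52% of all members). The ifh1 knockout median was −0.31 with quantile normalization (19 below 0) and −0.15 with non-RP scaling (16 below 0). The 2 genes were his1, the gene of the entry enzyme of histidine synthesis, at 422 FPKM in the ifh1 knockout, 662 in the sfp1 knockout, 540 in the fhl1 knockout and 853 in wild type (−1.01, bounds apart), and lys9, a saccharopine dehydrogenase gene, at 711, 1365, 905 and 1430 FPKM in the ifh1, sfp1 and fhl1 knockouts and wild type (−1.01). The entry enzyme gene of lysine synthesis, lys4, homocitrate synthase, stood at 581 FPKM in the ifh1 knockout, 1753 in the sfp1 knockout, 839 in the fhl1 knockout and 1127 in wild type (−0.95). For lys4 the ifh1 knockout was the lowest and the sfp1 knockout the highest of the 4 genotypes. The 18 branched-chain and aromatic genes had a median of −0.22 (0.061 with non-RP scaling), with ilv5, for a shared enzyme of valine and isoleucine synthesis, at −0.94. The 17 purine and pyrimidine genes had a median of −0.15 (0.069 with quantile normalization and 0.14 with non-RP scaling), with ade10 lowest at −0.90.

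Among the 25 genes of amino acid and peptide uptake and ammonium use the median was 0.17. Above 0 were 17 (47% of all members), and 8 were below. The lowest was gdh1, the gene of the ammonium-fixing NADP-dependent glutamate dehydrogenase, at 505 FPKM in the ifh1 knockout, 738 in the sfp1 knockout, 831 in the fhl1 knockout and 1461 in wild type (−1.53, bounds apart), and gdh2 and gln1, for the NAD-dependent enzyme and glutamine synthetase, were at −0.90 and −0.68. The highest was isp4, for an oligopeptide transporter, at 109 FPKM in the ifh1 knockout, 28.9 in the sfp1 knockout, 186 in the fhl1 knockout and 39.2 in wild type (1.45, bounds apart). The peptide transporter gene ptr2 was at 83.2, 25.0, 143 and 43.9 FPKM in the ifh1, sfp1 and fhl1 knockouts and wild type (0.91). For both transporters the ifh1 and fhl1 knockouts were above wild type and the sfp1 knockout was under it. The permease genes isp5 and per1 were at log2 ratios of 0.86 and 0.73 in the ifh1 knockout, −0.47 and −1.46 in the sfp1 knockout. With fhl1 deleted they were at 1.37 and 1.05. The permease gene nrg1 was at 1.39 with bounds apart, from a low level of 11.0 FPKM in the ifh1 knockout and 3.56 in wild type.

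**Figure D5:**
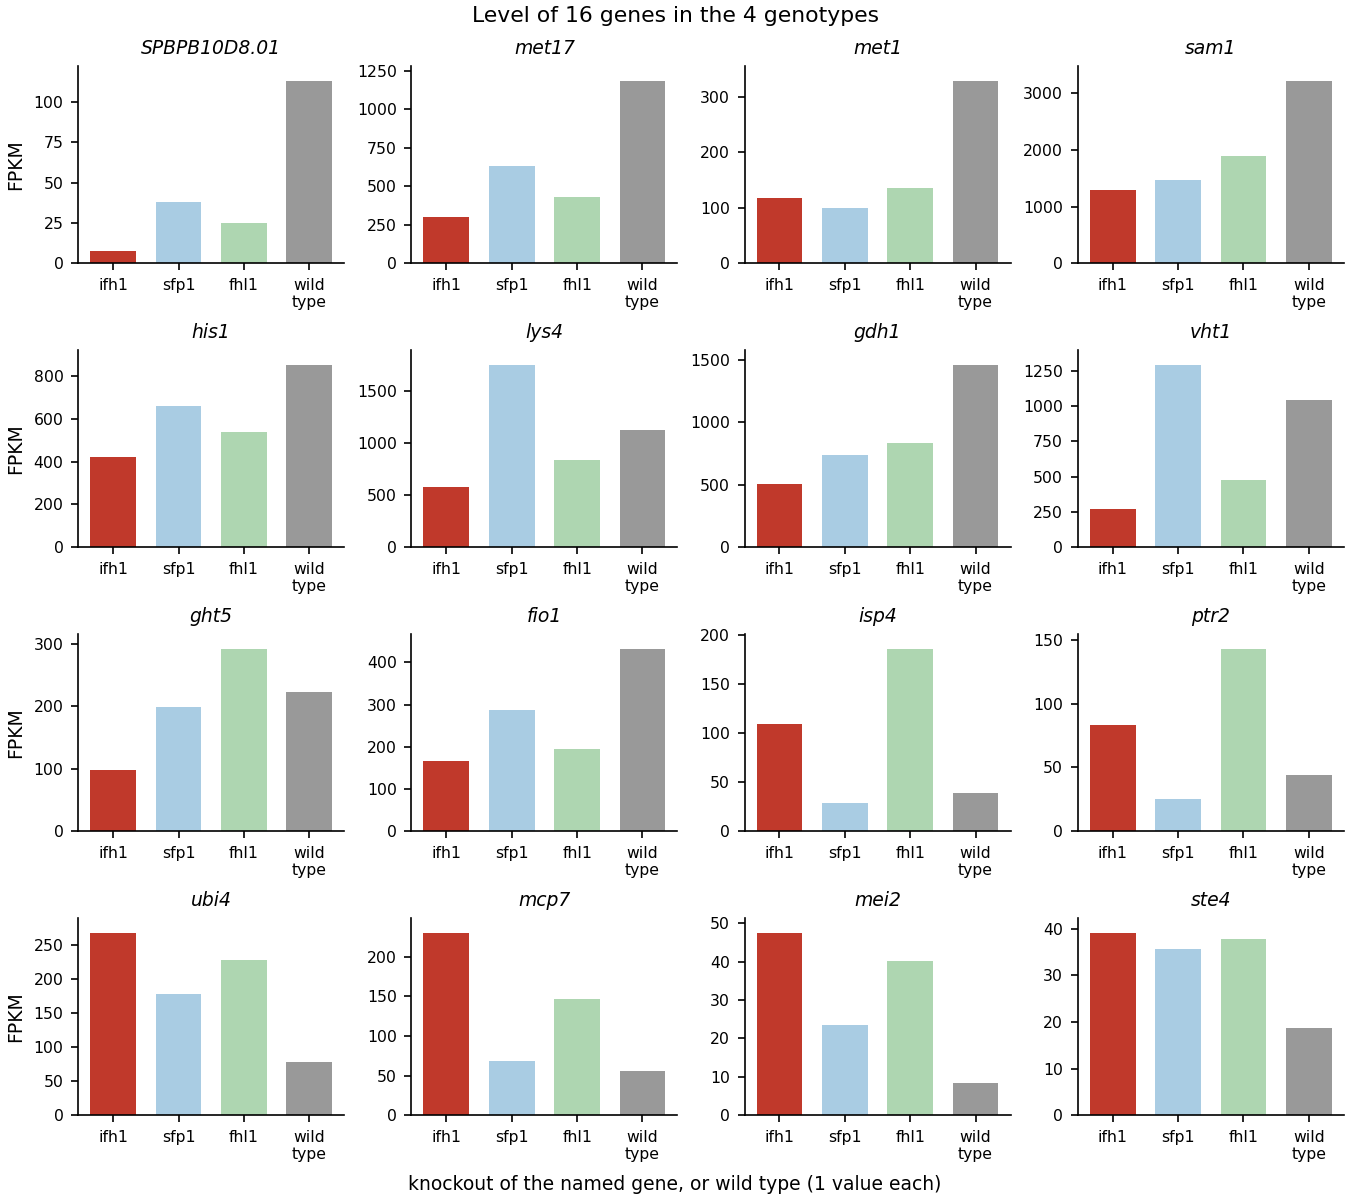
FPKM of 16 genes (bars, 1 value per genotype, axis from 0) in the ifh1, sfp1 and fhl1 knockouts and in wild type. In the ifh1 knockout the sulfur genes SPBPB10D8.01, met17, met1 and sam1, and his1, lys4, gdh1, vht1, ght5 and fio1, lie under wild type, and isp4, ptr2, ubi4, mcp7, mei2 and ste4 lie above it.

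Among vitamin and metal genes, vht1, the transporter gene for biotin, stood at 273 FPKM in the ifh1 knockout, 1293 in the sfp1 knockout, 474 in the fhl1 knockout and 1046 in wild type (−1.94, bounds apart). The thiamine transporter gene thi9 went the other way, at 1067 FPKM in the ifh1 knockout, 484 in the sfp1 knockout, 859 in the fhl1 knockout and 590 in wild type (0.85), and the 11 genes of the thiamine and biotin list had a median of −0.11 (0.12 with quantile normalization and 0.18 with non-RP scaling). The 13 iron genes had a median of −0.35 (−0.31 with quantile normalization), with fio1, the oxidase of reductive iron uptake, at 166 FPKM in the ifh1 knockout, 287 in the sfp1 knockout, 194 in the fhl1 knockout and 432 in wild type (−1.37, bounds apart). Its partner permease gene fip1 was at −0.85 and php4, for the repressor active when iron is short, at −0.73, while pcl1 was at 0.47.

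The 28 core stress genes had a median of 0.04, beside 0.50 in the sfp1 knockout, with 0.37 in the fhl1 knockout. In the ifh1 knockout 15 were above 0 (47% of all members). Within the list, ctt1, for catalase, stood at 79.2 FPKM in the ifh1 knockout, 78.3 in the sfp1 knockout, 91.0 in the fhl1 knockout and 39.9 in wild type (0.97), and atf1, for the stress transcription factor, was at 0.92. On the other side, SPAC27D7.09c, for a But2 family protein, stood at 59.0 FPKM in the ifh1 knockout, 226 in the sfp1 knockout, 145 in the fhl1 knockout and 216 in wild type (−1.86, bounds apart). The 23 heat shock and ubiquitin genes had a median of −0.26 (0.031 with quantile normalization and 0.020 with non-RP scaling). The chaperone genes ssa2 and hsp90 were at −0.74 and −0.70 (0.03 and 0.22 with quantile normalization). Of the 6 members above 0 the polyubiquitin gene ubi4 was highest, at 268 FPKM in the ifh1 knockout, 179 in the sfp1 knockout, 228 in the fhl1 knockout and 77.8 in wild type (1.77, bounds apart).

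The highest ratio of all members was that of the mei2 gene, for the RNA-binding protein that commits cells to meiosis, which stood at 47.5 FPKM in the ifh1 knockout, 23.4 in the sfp1 knockout, 40.3 in the fhl1 knockout and 8.32 in wild type (2.38, bounds apart). The mcp7 gene, for a meiotic recombination protein, stood at 230.3, 68.0, 147 and 55.7 FPKM in the ifh1, sfp1 and fhl1 knockouts and wild type (2.03, bounds apart). The mating genes ste4, a MAP kinase adaptor, and ste11, the transcription factor that turns on mei2, were at 1.03 and 0.84. The ifh1 knockout was the highest of the 4 genotypes for mei2, mcp7 and ste4. The 26 measured genes of sexual development (of 47 named) had a median of 0.12. Above 0 were 16 (47% of all members) and below 0 were 10, so that the list was split. Among the pheromone receptor genes map3 was at −0.42 and mam2 at 0.13.

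The other genes among the 12 highest were SPBPB2B2.05, SPBPB2B2.06c, SPAC1565.03, rtc3, SPCC794.04c, SPBC27.05, isp4, new20 and SPAP27G11.16. SPBPB2B2.05, annotated as a glutamine amidotransferase family protein, stood at 42.2 FPKM in the ifh1 knockout, 45.3 in the sfp1 knockout, 26.8 in the fhl1 knockout and 9.62 in wild type (2.03). SPBPB2B2.06c, listed as a phosphatase and close by on chromosome II, stood at 139, 299, 51.7 and 45.3 FPKM in the ifh1, sfp1 and fhl1 knockouts and wild type (1.60). The rtc3 gene was at 1.73, SPCC794.04c at 1.70, SPBC27.05 at 1.64, new20 at 1.45 and SPAP27G11.16 at 1.44. Of these 9, bounds lay apart for SPBPB2B2.05, SPBPB2B2.06c, SPCC794.04c and isp4. Lowest outside the groups above was SPAC8E11.10, annotated as a sorbose reductase, at 230 FPKM in the ifh1 knockout, 324 in the sfp1 knockout, 252 in the fhl1 knockout and 676 in wild type (−1.55).

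Lists that stood near all members were the mitochondrial ribosome (33 genes, median 0.03), the proteasome (37 genes, −0.05), the respiratory chain and ATP synthase (25 genes, −0.00), autophagy (25 genes, 0.01, beside 0.29 in the sfp1 knockout), the vacuolar ATPase (15 genes, −0.02), ergosterol synthesis (24 genes, −0.03) and TOR pathway components (36 genes, 0.01). Each of these 7 held 0 genes at the 2-fold limit. The mitochondrial ribosome, whose proteins share the role but not the compartment of the cytosolic ones, had 14 genes below 0 and 19 above, and mrpl44 was highest at 0.84. The 15 genes of fatty acid and phospholipid synthesis had a median of −0.40 (−0.10 with quantile normalization), with ole1, the desaturase gene, at −0.85. The 11 core histone genes had a median of −0.16 (0.20 with quantile normalization and 0.12 with non-RP scaling), and the 19 genes of the G1/S factor MBF and its targets a median of −0.11 (0.16 with non-RP scaling), with rep2, an activator subunit of MBF, lowest at −0.99. The 21 cell wall genes had a median of 0.07, the 10 phosphate genes one of 0.21, and the 11 flocculin and adhesion genes one of −0.30. Among the forkhead genes other than fhl1, sep1 was at −0.13, fkh2 at −0.09 and mei4 at 0.26.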

How the data were processed

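The deposited table gives FPKM with a lower and an upper bound per gene and genotype, made by the authors, and the unit comes from the file headers. TopHat2 2.0.9 and Cufflinks 2.1.1 were used per the submitters' processing notes. The sources used here do not state their roles, the build, the annotation, strand use or library depth, so the depth is unknown and no counting interval was computed. Columns named crf1d were read as the ifh1 knockout, since crf1 is a synonym of ifh1. Values were compared as log2(FPKM + 1), with no further scaling and no test, because each genotype has 1 value; this scale understates changes of low genes, and all 3 knockouts share the wild-type column. Members and the 35 gene lists were chosen with earlier results of these data known. A gene was called at 2-fold. Gene lengths are coding lengths (99.5% multiples of 3). Of 5129 genes, 5111 were found in ASM294v3, which gave symbols, products and promoters. In all 4 genotypes 215 genes were listed at 0. Genes were named from a rule: the 12 largest ratios each way, up to 3 members furthest in the direction of the list median and 1 the other way, the 5 ribosomal protein families whose copies differ most, and ifh1, sfp1 and fhl1. Further members of the glycolysis, sulfur, nitrogen, mating, RNA polymerase I and promoter-core sets, and genes of high level in no list, were named after their values were seen. Of these, only those that serve the account are printed. Alternatives covered pseudocount, filters, scaling and bounds. Python 3.11.15, pandas 2.3.3, numpy 2.4.6 and Biopython 1.88 were used.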

Additional observations from a re-analysis of the deposited data

Results flagged for a closer look

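Differences of at least 2-fold in opposite directions in the ifh1 and sfp1 knockouts drew attention to 2 members, each against the same wild-type column and with 1 value per genotype, so that the difference was not tested. The aes1 gene had a log2 ratio of −1.32 in the ifh1 knockout and 1.98 in the sfp1 knockout. SPAC1039.01 had a log2 ratio of 1.09 in the ifh1 knockout and −1.18 in the sfp1 knockout.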

How the results depend on the processing

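No paired analysis was possible because each genotype has 1 value, and no sample could be left out. The 108 lower genes became 29 at a length of at least 1000, 36 with quantile normalization, 40 with scaling by the FPKM total without ribosomal protein genes (non-RP scaling) and 59 with bounds apart. The 31 higher genes became 13 with a pseudocount of 10, 56 at a mean of at least 1 FPKM, 9 at 50, 63 with no expression minimum, 10 at a length of at least 1000, 84 with non-RP scaling and 11 with bounds apart. The ribosomal protein median of −0.99 became −0.92 at a length of at least 1000 (4 genes), −0.21 with quantile normalization, −0.71 with non-RP scaling, −0.91 with midpoints of the bounds and −0.90 under 1000 FPKM, the last chosen after the data were seen. The biogenesis median of 0.12 became 0.25 with quantile normalization and 0.41 with non-RP scaling. The glycolysis median of −0.86 became −0.20 with quantile normalization and, chosen after the data were seen, −0.043 under 1000 FPKM. Among the medians of −0.10 and beyond, sign changed for initiation factors (0.058 with quantile normalization, 0.18 with non-RP scaling), branched-chain and aromatic synthesis (0.061 with non-RP scaling), purine and pyrimidine synthesis (0.069 and 0.14 under these settings), heat shock (0.031 and 0.020) the citric acid cycle (0.053 with non-RP scaling), elongation factors (0.21 and 0.096), thiamine and biotin (0.12 and 0.18), core histones (0.20 and 0.12) and MBF targets (0.16 with non-RP scaling). The thiamine and biotin median was also 0.036 at a length of at least 1000. Of 43 named genes at the 2-fold limit, 0 changed sign under the alternatives that kept them and 21 fell inside the limit under at least 1. The cause of these shifts was not tested. With 1 value per genotype, a single ratio carries no error, and low genes and near-identical copies are the least certain.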
